A study of Mus musculus with 6 samples.

Results

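The active zone is the patch of presynaptic membrane where neurotransmitter is released, and 10 genes that encode its scaffold and priming proteins were examined here in the mouse auditory nerve. The 10 genes were taken by symbol: the giant scaffold genes Bsn and Pclo, the RIM genes Rims1 and Rims2, the RIM-binding protein gene Rimbp2, the ELKS genes Erc1 and Erc2, the liprin gene Ppfia3 and the Munc13 genes Unc13a and Unc13b. All 10 were among the 17666 genes of the table. RNA was sequenced from 3 samples of young adult C57 mice labelled as a complement factor B knockout and 3 samples of young adult C57 mice labelled wildtype, all aged 1.5 to 2.5 months. Each sample held the nerves dissected out of the 2 cochleas of 1 mouse, and the comparison asked how loss of factor B changes the nerve. The sources used here give neither the design of the targeted allele nor the sex of the mice. The normalized counts of a library summed to between 38675077 and 41496282 after scaling by the authors, so the read depth is unknown.

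At an active zone, Bassoon and Piccolo, the products of Bsn and Pclo, span the space where vesicles cluster. RIM and RIM-binding proteins hold calcium channels close to docked vesicles, ELKS proteins and liprins tie these parts together, and Munc13 proteins make docked vesicles ready to fuse. In the cochlea Bassoon is found at the ribbon synapses of inner hair cells, where it anchors the ribbon. Spiral ganglion neurons, whose cell bodies and axons make up the auditory nerve, form their own active zones farther on, in the brainstem, and transcribe the genes in cell bodies that lie within the cochlea.

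The proximal promoters of 4 of the genes are shown because the authors' deposited table calls them (Bsn and Pclo) or because they form a pair of close relatives that had different orders over the libraries (Unc13a and Unc13b). Each sequence runs from 250 bases before to 50 bases after the start of the RefSeq gene on GRCm38.p6, the build also called mm10, on the strand of the gene. Capitals mark GC boxes (GGGCGG, or CCGCCC where the match is on the other strand).
Bsn: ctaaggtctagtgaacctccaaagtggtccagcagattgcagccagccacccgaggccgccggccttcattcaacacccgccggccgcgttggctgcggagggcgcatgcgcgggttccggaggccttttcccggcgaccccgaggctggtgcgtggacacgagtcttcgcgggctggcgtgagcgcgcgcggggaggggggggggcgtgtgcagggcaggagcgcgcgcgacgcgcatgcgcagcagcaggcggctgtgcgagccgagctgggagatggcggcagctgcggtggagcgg
Pclo: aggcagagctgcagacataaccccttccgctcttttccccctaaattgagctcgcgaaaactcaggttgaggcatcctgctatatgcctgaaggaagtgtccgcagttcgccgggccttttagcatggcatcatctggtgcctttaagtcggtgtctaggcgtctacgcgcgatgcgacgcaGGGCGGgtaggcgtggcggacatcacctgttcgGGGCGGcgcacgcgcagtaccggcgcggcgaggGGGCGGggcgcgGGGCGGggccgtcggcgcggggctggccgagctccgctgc
Unc13a: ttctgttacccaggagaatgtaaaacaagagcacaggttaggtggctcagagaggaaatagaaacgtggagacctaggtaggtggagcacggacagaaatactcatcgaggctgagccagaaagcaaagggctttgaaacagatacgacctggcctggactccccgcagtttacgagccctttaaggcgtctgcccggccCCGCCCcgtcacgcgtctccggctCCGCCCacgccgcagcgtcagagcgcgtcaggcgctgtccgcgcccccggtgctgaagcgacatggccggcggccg
Unc13b: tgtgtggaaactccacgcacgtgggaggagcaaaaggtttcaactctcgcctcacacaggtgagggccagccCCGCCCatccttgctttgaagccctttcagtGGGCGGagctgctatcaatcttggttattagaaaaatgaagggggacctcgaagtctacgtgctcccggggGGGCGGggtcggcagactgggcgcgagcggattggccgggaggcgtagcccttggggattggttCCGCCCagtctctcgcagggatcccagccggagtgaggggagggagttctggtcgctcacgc
The windows lie at chr9:108190334-108190633 on the minus strand for Bsn, chr5:14514668-14514967 on the plus strand for Pclo, chr8:71671708-71672007 on the minus strand for Unc13a and chr4:43058703-43059002 on the plus strand for Unc13b. RefSeq windows were matched for 9 of the 10 genes, with Rims2 not used here. GC boxes were found in 7 of the 9 windows, against 35.7% of all 32851 windows. Pclo held 4 of them, Unc13a 2 and Unc13b 4, while Bsn held 0, so its sequence has no capitals. A TATA box (TATAAA) and a full cyclic AMP response element (TGACGTCA), both searched on both strands, were found in 0 of the 9, against 13.6% and 1.79% of all windows. The GC content of the 9 windows was 61.3% to 77.0%, above the median of 52.7% over all windows. These matches are letters in a window and were not tested as binding sites.

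The targeted gene went against the labels. Cfb, which encodes factor B, had 336, 351 and 376 normalized counts in libraries labelled knockout, against 55, 39 and 116 in libraries labelled wildtype. The log2 difference was 2.47 (SE 0.38, adjusted p = 0.107 by limma), and in the authors' deposited table Cfb was 5.08-fold higher with a false discovery rate of 1.8e-06. The labels were kept as given, so every direction below is between libraries as labelled. Nerve tissue was present in every library: Calb2 and Nefh, which mark spiral ganglion neurons, had at least 82027 and 82204 normalized counts in libraries labelled knockout, and at least 86090 and 55190 in libraries labelled wildtype. Mbp, a myelin gene, had at least 144849 in libraries labelled knockout and at least 133466 in libraries labelled wildtype. In a bulk sample, fewer cells of a type and less RNA per cell cannot be told apart.

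The scaffold genes were higher on average in libraries labelled knockout, in 10 of 10 genes against 50.8% of all genes, and the differences were largest for Bsn, Unc13a and Pclo. That share was larger among long transcripts: 66.7% at 4000 to 6000 bases, 82.9% to 8000, 88.4% to 12000 and 94.0% above. All 10 genes lie in these classes. None passed limma's test over all genes at an adjusted p of 0.05: 0 of 10 were called, where 0.158% of all genes were. At an unadjusted p under 0.05 there were 6 of 10, all higher (Bsn, Pclo, Rims1, Rimbp2, Erc2 and Unc13a), against 10.8% of all genes in that direction. This last share is not given by transcript length here. The authors' deposited table, at a rate under 0.05, called 2 of 10 (Bsn and Pclo, both higher), against 4.14% of genes with a rate in that direction, and 0 of 10 as lower, against 3.25%. The median log2 difference of the 10 genes was 0.69, and that of all 17666 genes was 0.006. Log2 differences are on the log2(value + 1) scale, labelled knockout minus labelled wildtype.

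**Figure D1:**
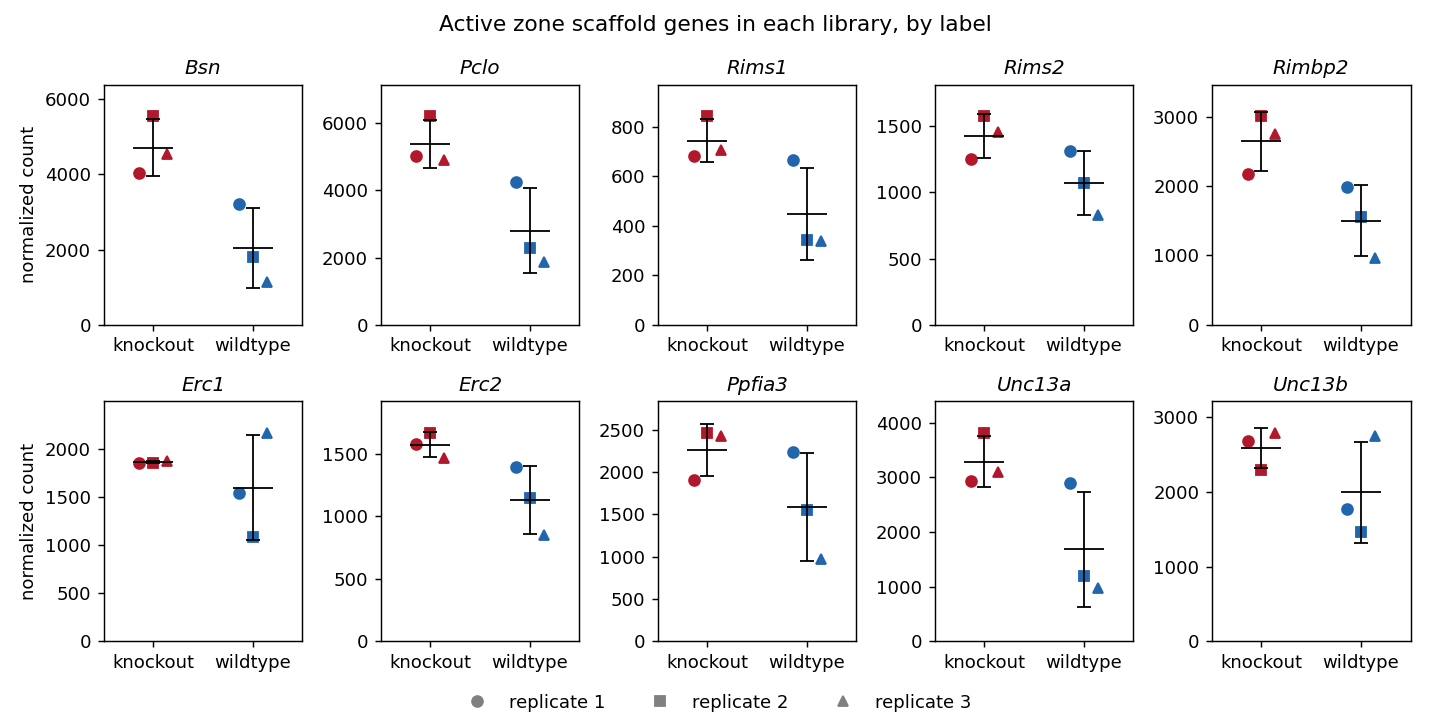
Normalized counts of the 10 genes in each library (vertical axes, each from 0), with libraries labelled knockout in red and wildtype in blue; marker shapes give the replicate, the bar is the mean and the whiskers are the SD (n = 3). For Bsn the knockout values were 4043 to 5546 and the wildtype values 1140 to 3222, while for Erc1 wildtype replicate 3 was the highest of all 6 at 2173.

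Bsn, the Bassoon gene, lies on chromosome 9 (108096022 to 108190384, minus strand, in GENCODE M21 on GRCm38, as for all gene positions here), and its longest coding transcript has 15938 bases in 12 exons. Its normalized counts were 4043, 5546 and 4551 in libraries labelled knockout, against 3222, 1791 and 1140 in libraries labelled wildtype. All 3 knockout values lay above all 3 wildtype values, and the wildtype libraries spread widely, with replicate 1 near the knockout range and replicate 3 far below it. The means were 4713 ± 765 and 2051 ± 1065 (SD, n = 3 each). The log2 difference was 1.32 with a standard error of 0.35 (95% interval 0.49 to 2.15, adjusted p = 0.164 by limma).

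Pclo, the Piccolo gene (chromosome 5, 14514918 to 14863459, plus strand), has the longest transcript of the 10, at 20084 bases. It had 5031, 6209 and 4903 normalized counts in libraries labelled knockout, against 4237, 2289 and 1866 in libraries labelled wildtype. The values again did not overlap, and wildtype replicate 1 again stood apart from the other wildtype libraries. The log2 difference was 1.03 (SE 0.29, 95% interval 0.34 to 1.72, adjusted p = 0.171 by limma). In the authors' deposited table Bsn was 2.30-fold higher with a false discovery rate of 0.0224, and Pclo 1.92-fold higher with 0.0445. Bsn was also somewhat higher relative to Pclo: the ratio of their counts was 0.88 ± 0.06 in libraries labelled knockout and 0.72 ± 0.09 in libraries labelled wildtype (SD, n = 3 each), with no overlap. For that ratio the two-sided exact permutation p was 0.1, the smallest that 3 against 3 can give, and 0.4 after adjustment over the 4 ratios computed.

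The RIM genes were the next group. Rims1 (chromosome 1, 22286251 to 22805994, minus strand), whose protein binds Rab3 on vesicles and Munc13 at the membrane, had 684, 844 and 707 normalized counts in libraries labelled knockout, against 665, 343 and 339 in libraries labelled wildtype. The ranges did not overlap, but knockout replicate 1 and wildtype replicate 1 lay close together, far above the other wildtype libraries. Its log2 difference was 0.80 (SE 0.28, adjusted p = 0.198 by limma). Rims2 (chromosome 15, 39198261 to 39684372, plus strand), its close relative, had 1248, 1575 and 1457 in libraries labelled knockout, against 1314, 1072 and 827 in libraries labelled wildtype, and these ranges overlapped. Its log2 difference was 0.43 (SE 0.19, adjusted p = 0.260 by limma). Rims2 had more counts than Rims1 in every library, although its longest coding transcript is the shorter, 4800 against 6446 bases. The ratio of Rims1 to Rims2 was 0.52 ± 0.03 in libraries labelled knockout and 0.41 ± 0.09 in libraries labelled wildtype (SD, n = 3 each; two-sided exact permutation p = 0.2, adjusted over the 4 ratios 0.4).

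Rimbp2 (chromosome 5, 128757791 to 128953486, minus strand) encodes the adaptor that links RIM to calcium channels. It had 2176, 3010 and 2759 normalized counts in libraries labelled knockout, against 1994, 1556 and 962 in libraries labelled wildtype, with no overlap. Its log2 difference was 0.87 (SE 0.27, adjusted p = 0.180 by limma), and the authors' deposited table gave it a rate of 0.059.

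The ELKS pair did not share a pattern. Erc2 (chromosome 14, 27622428 to 28478537, plus strand), the form enriched in brain, had 1579, 1666 and 1465 normalized counts in libraries labelled knockout, against 1396, 1144 and 848 in libraries labelled wildtype. These did not overlap, and the log2 difference was 0.50 (SE 0.19, adjusted p = 0.213 by limma). Erc1 (chromosome 6, 119570796 to 119848167, minus strand), which many tissues express, had 1863, 1855 and 1881 in libraries labelled knockout, an SD of 13.3, against 1541, 1090 and 2173 in libraries labelled wildtype. The knockout values of Erc1 thus lay inside the wildtype range, and the log2 difference was 0.28 (SE 0.23, adjusted p = 0.539 by limma). It was 0.028 without wildtype replicate 2 and 0.53 without wildtype replicate 3. The ratio of Erc2 to Erc1 was 0.85, 0.90 and 0.78 in libraries labelled knockout, against 0.91, 1.05 and 0.39 in libraries labelled wildtype. Wildtype replicate 3 alone was low in that ratio (two-sided exact permutation p = 1, also after adjustment).

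Ppfia3 (chromosome 7, 45339122 to 45367019, minus strand) encodes liprin-alpha3, a scaffold that binds ELKS, RIM and receptor phosphatases. It had 1906, 2462 and 2418 normalized counts in libraries labelled knockout, against 2239, 1545 and 973 in libraries labelled wildtype. Wildtype replicate 1 lay within the knockout range, and the log2 difference was 0.58 (SE 0.29, adjusted p = 0.305 by limma). It was 0.27 without wildtype replicate 3.

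The Munc13 genes had different orders over the libraries. Unc13a (chromosome 8, 71624417 to 71671757, minus strand) encodes Munc13-1, the main vesicle priming factor of many glutamatergic synapses. It had 2942, 3818 and 3100 normalized counts in libraries labelled knockout, against 2894, 1194 and 972 in libraries labelled wildtype. Wildtype replicate 1 lay just under the lowest knockout library, while the other wildtype libraries were far below it. The log2 difference was 1.12 (SE 0.38, 95% interval 0.22 to 2.03, adjusted p = 0.196 by limma). Unc13b (chromosome 4, 43058953 to 43264871, plus strand), the Munc13-2 gene, had 2684, 2287 and 2789 in libraries labelled knockout, against 1765, 1458 and 2749 in libraries labelled wildtype. These ranges overlapped through wildtype replicate 3, and the log2 difference was 0.42 (SE 0.23, adjusted p = 0.345 by limma). It was 0.23 without wildtype replicate 2 and 0.68 without wildtype replicate 3. The ratio of Unc13a to Unc13b was 1.10, 1.67 and 1.11 in libraries labelled knockout, against 1.64, 0.82 and 0.35 in libraries labelled wildtype. That ratio overlapped between the labels (two-sided exact permutation p = 0.4, adjusted 0.533), and its lowest value was again wildtype replicate 3.

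Levels of different genes were compared per kilobase of the longest coding transcript, as normalized counts per kb averaged over the 6 libraries. Ppfia3 was highest at 414 per kb, followed by Rimbp2 at 298, Rims2 at 260 and Unc13a at 242. Erc2, Bsn, Pclo and Erc1 lay close together at 217, 212, 204 and 198 per kb. Unc13b had 155 and Rims1 was lowest at 92.6 per kb. The ranges over the 6 libraries overlapped between every gene and its neighbour in this order. Such ranges include differences between libraries, and the order per kb within each library was not compared. The order depends on the transcript chosen: Unc13b has 4 coding transcripts with a median of 6464 bases, against 14754 for its longest, and Rimbp2 has 5 with a median of 4264, against 6966.

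Over the libraries, the 10 genes fell into 2 patterns. Wildtype replicate 3 was the lowest library for 8 of the 10, against 26.3% of all genes. Knockout replicate 2 was the highest for the same 8, a count for which no share over all genes is given here. In every length class above 4000 bases, knockout replicate 2 also had the highest median deviation over all genes, 0.46 above 12000 bases. Erc1 and Unc13b were lowest in wildtype replicate 2, and wildtype replicate 3 was their highest or second highest library. Averaged over the 10 genes, the deviation from each gene's own mean was 0.25, 0.49 and 0.36 (log2) in libraries labelled knockout, against 0.097, -0.52 and -0.68 in libraries labelled wildtype. Wildtype replicate 1 thus lay near the knockout libraries and the other wildtype libraries well below them. Without wildtype replicate 1, Pclo (log2 difference 1.37) and Unc13a (1.60) passed limma's test (adjusted p = 0.047 for both), as did 87 of all genes, and Bsn (1.71) had an adjusted p of 0.0525. Without wildtype replicate 3 the log2 differences of Rims2 (0.26), Rimbp2 (0.57), Erc2 (0.31) and Ppfia3 (0.27) were smaller by more than 1.5 times. Those of Erc1 (0.53) and Unc13b (0.68) were larger by more than 1.5 times.

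Several of these transcripts are very long, and across the whole table the difference between the labels varied with transcript length. Genes whose longest transcript has at most 1000 bases had a median log2 difference of -0.34, and the median increased with every longer class to 0.79 for the 183 genes over 12000 bases, 94.0% of which were positive. Bsn, Pclo and Unc13b belong to this longest class, and their differences of 1.32, 1.03 and 0.42 lay above, above and below its median. Rims1, Rimbp2 and Erc2 belong to the class of 6000 to 8000 bases, with a median of 0.29, and all 3 lay above it. Erc1 and Unc13a belong to the class of 8000 to 12000 bases, with a median of 0.42; Unc13a lay above it and Erc1 below. Rims2 and Ppfia3, under 6000 bases, lay above their class median of 0.13.

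**Figure D2:**
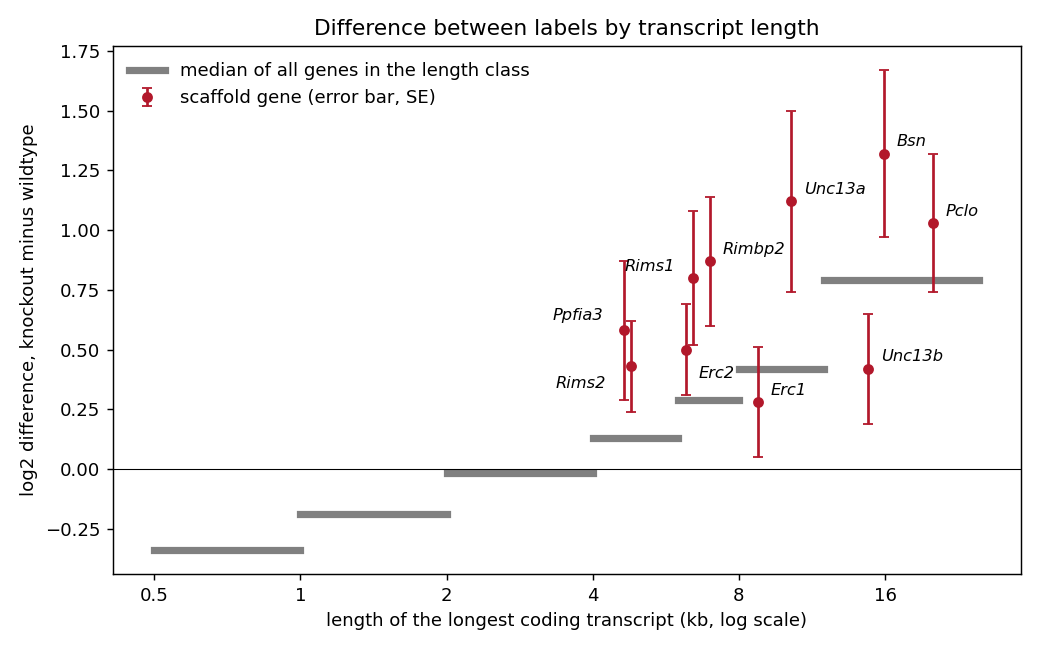
Log2 difference, labelled knockout minus labelled wildtype (vertical axis), against the length of the longest coding transcript in kb (log scale); grey bars are medians of all genes in a length class, red points are the 10 genes with the SE of limma's fit. The class medians climb from -0.34 to 0.79, with 8 genes above the median of their class and Erc1 and Unc13b below.

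The non-overlapping genes were set beside genes of like length. The ranges of 6 of the 10 genes did not overlap, all higher in libraries labelled knockout, against 13.6% of all genes in that direction. Those 6 all have transcripts of at least 6000 bases, as do 8 of the 10, and 40.8% of the 2121 genes of that length also did not overlap in that direction. Above 12000 bases the share was 66.7%, and Bsn and Pclo were 2 of 3. The authors' deposited table called 15.4% of genes with transcripts of at least 6000 bases as higher, and 2 of the 8 scaffold genes there. The authors' deposited table called 41.2% of genes with transcripts over 12000 bases as higher, and 2 of the 3 scaffold genes there.

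A loess fit within each library reduced the length trend. The class medians then lay between -0.022 and -0.0033 up to 12000 bases, but the class over 12000 bases, which holds Bsn, Pclo and Unc13b, kept a median of 0.16. Bsn then had a log2 difference of 0.62 (SE 0.35, 95% interval -0.22 to 1.45, adjusted p = 0.450 by limma) and Pclo of 0.20 (SE 0.28, 95% interval -0.45 to 0.85, adjusted p = 0.759). Unc13a (0.64), Rimbp2 (0.57), Rims1 (0.53) and Ppfia3 (0.46) kept larger differences than Pclo, and Erc1 (-0.13) and Unc13b (-0.24) turned negative. These signs depended on the transcript chosen: with the median length of a gene's coding transcripts, an alternative chosen after the data were seen, Erc1 was at 0.026 and Unc13b at 0.097. With the correction 0 of 10 genes reached an unadjusted p of 0.05 in limma's fit, where 14.7% of all genes did, and 0 passed the adjusted threshold. The median of the 10 was 0.38.

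**Figure D3:**
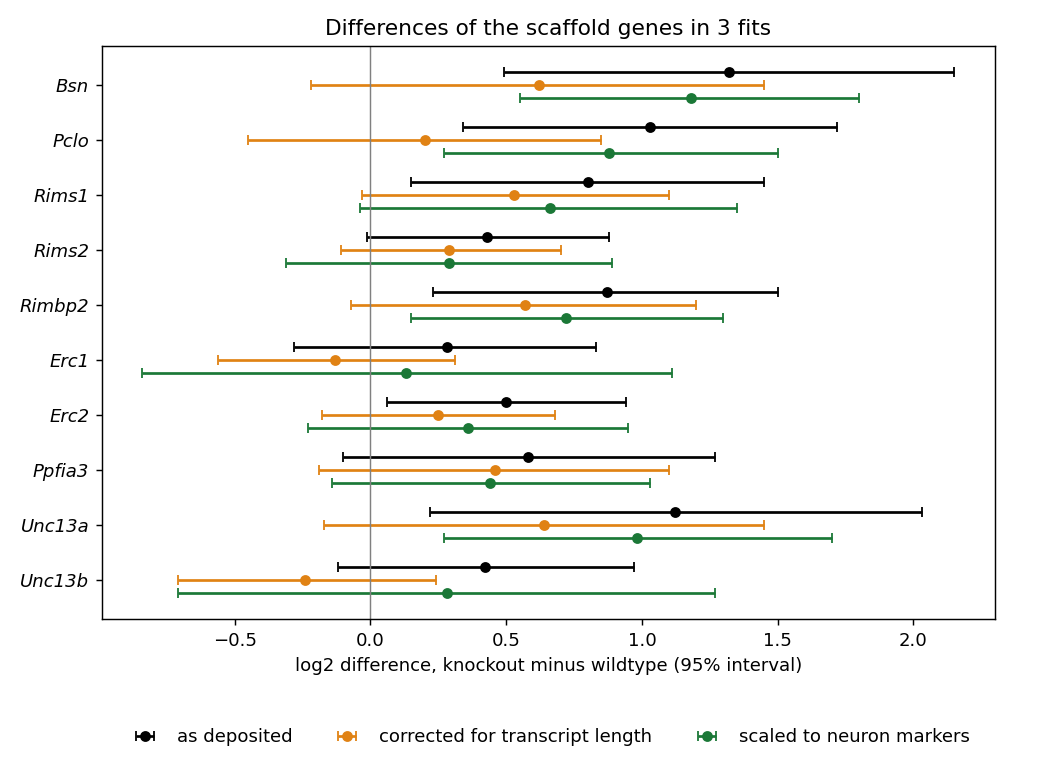
Log2 differences with 95% intervals for the 10 genes in 3 limma fits: values as deposited (black), corrected for transcript length (orange) and scaled to 20 spiral ganglion neuron markers (green). Bsn is at 1.32 as deposited, 0.62 with the length correction and 1.18 with the neuron scaling, and Erc1 and Unc13b turn negative with the length correction, which uses the longest transcript.

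The tilt with length was not the same in each library. The median deviation of genes over 12000 bases was 0.38, 0.46 and 0.36 in libraries labelled knockout, against -0.081, -0.85 and -0.17 in libraries labelled wildtype, and wildtype replicate 2 had the lowest median. The part that this tilt plays in the values of wildtype replicate 2 was not tested. After the length correction the mean deviation of the 10 genes was 0.061, 0.27 and 0.15 in libraries labelled knockout, against 0.13, -0.072 and -0.53 in libraries labelled wildtype. Wildtype replicate 3 alone remained far from the others.

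Markers of the neurons also differed between libraries. The 20 spiral ganglion neuron markers had a mean deviation of -0.0072, 0.18 and 0.039 in libraries labelled knockout, against 0.32, 0.12 and -0.66 in libraries labelled wildtype. Their summed level was 420477 to 506655 normalized counts in libraries labelled knockout and 302273 to 521905 in libraries labelled wildtype, with no marker at 0. The low library was wildtype replicate 3, the library in which 8 scaffold genes were lowest. With the mean deviation of the markers subtracted, that of the 10 genes was 0.26, 0.31 and 0.32 in libraries labelled knockout, against -0.22, -0.65 and -0.02 in libraries labelled wildtype. For the 8 scaffold genes it was -0.27 in wildtype replicate 3 and -0.62 in wildtype replicate 2. With the length correction as well, the 10 genes were at 0.12 in wildtype replicate 3. The part of the neuron marker drop in the scaffold values was not tested. Of the 20 markers 11 had a positive log2 difference, and the list median was 0.17. With each library scaled to these markers, Bsn had a log2 difference of 1.18, Unc13a 0.98, Pclo 0.88 and Rimbp2 0.72, making 4 of 10 with an unadjusted p under 0.05 by limma, where 4.12% of all genes had one, and 0 of 10 passed the adjusted threshold. That scaling moved the median of all genes by -0.14 and gave the 10 genes a median of 0.55. With both the length correction and the neuron scaling, a combination chosen after the data were seen, the median of the 10 was 0.22 and the median of all genes -0.16. The lowest unadjusted p of the 10 by limma was then 0.104, for Unc13a, where 3.30% of all genes had one under 0.05.

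Hair cells, which carry ribbon active zones of their own, were traced by 18 markers. All 18 had a positive log2 difference, with a list median of 0.92, although the mean count of Ocm was 866 in libraries labelled knockout and 965 in libraries labelled wildtype. Their summed level was 11236 to 18694 normalized counts in libraries labelled knockout and 4773 to 14392 in libraries labelled wildtype, and Atoh1 was at 0 in 4 libraries. Otof, which encodes the calcium sensor otoferlin of hair cell release, had 5395, 5168 and 2612 in libraries labelled knockout, against 983, 811 and 3472 in libraries labelled wildtype. The mean deviation of the list was 0.95, 0.86 and -0.14 in libraries labelled knockout, against -0.69, -1.35 and 0.37 in libraries labelled wildtype. Within the wildtype libraries the hair cell markers, like Erc1 and Unc13b, were lowest in replicate 2 and highest in replicate 3. In libraries labelled knockout the orders differed, with deviations of 0.14, 0.13 and 0.15 for Erc1 and 0.27, 0.04 and 0.33 for Unc13b. The part of hair cell RNA in the scaffold values was not tested.

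**Figure D4:**
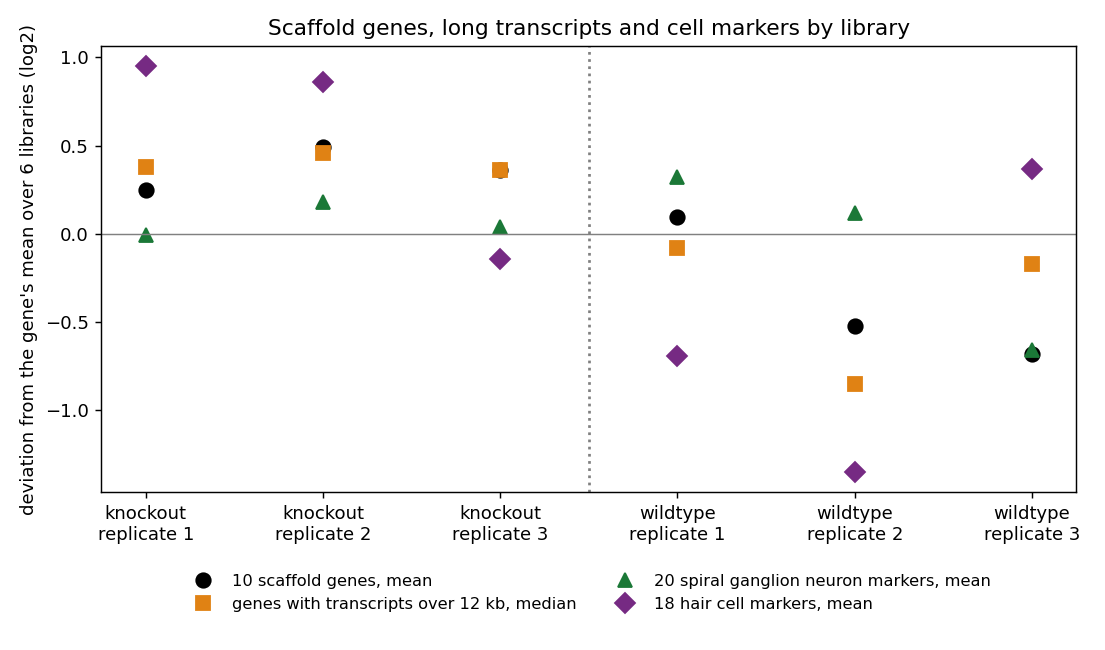
Deviation in each library from the gene's mean over the 6 libraries (log2, vertical axis), as the mean of the 10 scaffold genes (black), the median of genes with transcripts over 12 kb (orange), and the means of 20 spiral ganglion neuron markers (green) and 18 hair cell markers (purple). Wildtype replicate 2 is lowest for long transcripts (-0.85) and hair cell markers (-1.35), and wildtype replicate 3 is lowest for neuron markers (-0.66) and scaffold genes (-0.68).

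Other genes of the same machinery had a smaller median difference. Of 63 partner genes, 0 passed limma's test, 13 were higher and 1 (Tprgl) lower at an unadjusted p under 0.05, against 10.8% and 9.20% of all genes, and the list median was 0.18. The authors' deposited table called 1 of the 63 as higher, against 4.14% of genes with a rate in that direction. It was Cacna1e, a calcium channel gene of the R type, 2.17-fold higher with a false discovery rate of 0.0151. Cacna1e had 1527, 1527 and 1293 normalized counts in libraries labelled knockout, against 793, 365 and 844 in libraries labelled wildtype, and with 14921 bases it too has a very long transcript. All 11 calcium channel genes were higher on average, with a median of 0.36, and 4 of them (Cacna1a, Cacna1d, Cacna1e and Cacna2d2) had an unadjusted p under 0.05 by limma. The median longest transcript of the 11 had 7436 bases. Of all genes with 6000 to 8000 bases, 82.9% had a positive log2 difference, with a median of 0.29.

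The smaller RIM relatives were higher on average as well. Rims3, which encodes a short RIM, had a log2 difference of 0.83 (SE 0.33), and Tspoap1, which encodes RIM-binding protein 1, of 0.82 (SE 0.29), with overlapping ranges for both. The 4 genes of that group had a median of 0.85, the 6 presynaptic adhesion genes one of 0.56, and Ptprf (0.59) and Ptprs (0.59), receptor phosphatase genes, were the most abundant of the adhesion genes. The liprin relatives had a median of 0.014, with Ppfibp1 at -0.0036 and Ppfia4 at 0.76. The Munc13 and CAPS relatives had a median of 0.22, with the abundant Cadps at 0.42 and Unc13c at 0.35.

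The fusion, Rab3 and scaffold adaptor groups had medians near 0. The 14 fusion genes had a median of 0.021, and the most abundant of them, Snap25 and Vamp1, which encode SNARE proteins of vesicle fusion, had log2 differences of -0.12 and -0.014. The Rab3 group had a median of 0.014, with Rab3a at -0.079 and Rph3a at 0.25. The 13 scaffold adaptor genes had a median of 0.071, with Apba1 at 0.51 and Ctbp1 at 0.10. Ctbp2, whose ribbon-specific product is RIBEYE, had 1566, 1541 and 1637 normalized counts in libraries labelled knockout, against 1550, 1461 and 1463 in libraries labelled wildtype, which overlapped. Ctbp2 was named here after its values were seen. The median longest transcript had 3452 bases in the fusion group and 7863 bases in the 10 scaffold genes. It had 5181 bases in the liprin relatives (median difference 0.014), 5942 in the smaller RIM relatives (0.85) and 7789 in the adhesion genes (0.56). The order of these groups by length was thus not their order by difference. The part of length in the group medians was not tested.

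The genes whose pattern over the 6 libraries was most like the mean of the 10 were Myo5a, Nfasc, Dock3, Lsamp and Itsn1. Likeness was the root mean square difference between centred log2 values over the 6 libraries, which was 0.0556, 0.06, 0.0618, 0.0627 and 0.0683 for these, against a median of 0.489 over the 12683 genes compared. Their longest coding transcripts have 11702, 9739, 9063, 8794 and 14012 bases. Nfasc, which encodes the cell adhesion protein neurofascin, had 23599, 30443 and 27795 normalized counts in libraries labelled knockout, against 23498, 14995 and 12459 in libraries labelled wildtype. The log2 differences of the 5 genes were 0.65 to 0.82, which their choice by pattern fixes in direction.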

How the data were processed

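RNA came from auditory nerves, and libraries were made with the Illumina TruSeq kit, per the labels' protocols, which state that low-quality RNA was left out. The submitters' processing notes name TopHat2, DESeq2, Partek and mm10, but no version. The authors deposited a score per gene and library: gene counts scaled per library and rounded, here called normalized counts. The values themselves show this scaling, with median-of-ratios factors of 1.0038 to 1.0068. Signed fold changes (a score) and false discovery rates stand beside them per the file headers, and 2061 genes lack a rate. How reads were counted is not given in the sources used here. Read totals are unknown, so no count test was run and no counting interval is given.

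The scale was log2(value + 1); a minimum mean of 1 removed no gene of the 17666. Limma 3.58.1 in R 4.3.3 fitted the label alone, with eBayes and a trend, adjusted by Benjamini-Hochberg over all genes. P-values measure the spread between these mice. Transcript length is that of the longest coding transcript in GENCODE M21 (98.3% of genes), and the length correction was a loess of span 0.3 in each library. The fit was run on simulated data with independent noise for each gene and library. Those data hold no shift shared by many genes of a library, so they cannot show how the fit behaves under one. The members and lists were chosen with earlier results of these data known. The text names all 10 members, partner genes called by limma or the authors' deposited table (otherwise the most abundant 2 of a list), the most abundant 2 markers of a list (1 is not reported here), and the 5 genes most like the members. Other genes with an unadjusted p under 0.05, Ctbp2, Atoh1, Ocm and the 4 family ratios were chosen after their values were seen.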

Additional observations from a re-analysis of the deposited data

How the results depend on the processing

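Of 190 member values under 19 alternatives, 186 kept their direction. Dropping the filter, raising its minimum mean to 50, dropping the trend or adding the replicate block cannot change a member's difference. Those directions were therefore fixed in advance, and the other alternatives reuse the same libraries. The 4 reversed were Erc1 (-0.13 with the length correction, -0.29 with neuron scaling added) and Unc13b (-0.24 and -0.40); with median transcript lengths they were 0.026 and 0.097. The member median was 0.38 with the length correction, 0.35 with median transcript lengths and 0.22 with length correction and neuron scaling. The last 2 were chosen after seeing the data. Leaving out 1 library gave medians of 0.60 to 0.99 and 0 to 2 members called; the 2 (Pclo and Unc13a) were called without wildtype replicate 1. The authors' deposited table called 2 members and 1 partner gene. The partner median, 0.18, was 0.04 with neuron scaling, 0.083 with the length correction, 0.11 with median lengths or array weights, -0.075 with both corrections and 0.14 to 0.27 with 1 library left out; 0 to 2 partners were called, the 2 (Lin7b and Cacna1d) without wildtype replicate 3. The cause was not tested. Calls over all genes numbered 28 and ranged from 0 without any 1 knockout library to 419 without wildtype replicate 3; they numbered 87 without wildtype replicate 1, 1 without wildtype replicate 2, 111 with array weights, 16 without the trend, 19 with the length correction and 5 with neuron scaling, alone or combined.

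The labels give no batch, and the deviations of same-numbered libraries correlated at -0.0648, 0.103 and 0.246. Those of differently numbered libraries correlated at -0.398 to 0.469. With 3 libraries per label these values cannot decide whether same-numbered libraries share more than a number. With the replicate block, 0 members were called, Bsn stayed at 1.32 (adjusted p = 0.271 by limma), and calls over all genes numbered 7. The read depth is unknown, and 3 mice per label limit the precision.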

Other observations

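Markers of other cell types that a dissected nerve can hold were tallied in the same fit. All 9 red cell markers had a negative log2 difference, with a median of -2.44, and their summed level was 2727 to 4001 normalized counts in libraries labelled knockout and 10828 to 34669 in libraries labelled wildtype; Hba-a1 (-2.04) and Hbb-b1 (-2.44) were the most abundant. All 8 neutrophil markers had one as well, with a median of -2.89, and Ltf (-2.22) and S100a9 (-3.02) were the most abundant. Ltf overlapped, with 460, 61 and 1 normalized counts in libraries labelled knockout, against 103, 103 and 534 in libraries labelled wildtype. The mean deviation of the neutrophil list was -0.17, -0.46 and -3.60 in libraries labelled knockout, against 0.74, 1.20 and 2.29 in libraries labelled wildtype. The authors' deposited table called 9 of the 9 red cell markers and 5 of the 8 neutrophil markers as lower, against 3.25% of genes with a rate.

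Of 10 myelinating Schwann cell markers 2 had a positive log2 difference (median -0.23), with Mbp at -0.21. The median was 0.15 for 8 satellite and nonmyelinating glia markers (Apoe -0.18, Glul -0.82), 0.24 for 7 central glia markers (Gfap 0.69, Aqp4 0.35) and -0.067 for 8 macrophage markers (Csf1r 0.17, C1qb -0.33). It was -0.11 for 7 osteoblast markers (Col1a1 0.15, Dmp1 -0.11), 0.33 for 7 endothelial and mural markers (Rgs5 -0.20, Pdgfrb 0.63) and -0.97 for 7 skeletal muscle markers, although Neb (1.73) and Ttn (1.40), the most abundant of these, were higher on average. Neb and Ttn have very long transcripts. The part of these cell types in the scaffold values was not tested.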
